A study of Mus musculus with 2 samples.

Results

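Cluster 2 is a cluster of colon B cells among the clusters 0 to 16 that the authors numbered in their deposited metadata, and it was taken here as every cell that carries the number 2. It holds 840 of 6886 cells, 420 in the 5XFAD library and 420 in the WT library. 5XFAD is a transgenic model in which the neuronal Thy1 promoter drives human genes that carry mutations of familial Alzheimer disease, and the WT mice were their littermates. All animals were females of 9 months, and live cells with the leukocyte surface marker CD45 were sorted from dissociated colon. Colon cells of 3 mice were pooled into 1 10x Chromium 3′ library per genotype, so a value of 5XFAD and a value of WT compare 2 libraries, without replicate animals. All intervals below are 95% intervals of counting error, and no test between genotypes or between clusters was made.

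The label of the cluster names Scd1 and Abca1, and its fixed marker genes are these 2 with B3gnt7, B3gnt5 and Eif2ak3. Scd1 is the desaturase that puts the first double bond into newly made saturated fatty acids. Abca1 moves cholesterol and phospholipid out of the cell and is a well-known target of the sterol-sensing LXR receptors. B3gnt7 and B3gnt5 add N-acetylglucosamine to growing sugar chains in the Golgi, B3gnt5 on glycolipids. Eif2ak3 encodes PERK, the endoplasmic reticulum kinase that slows translation when unfolded protein builds up. Resting B cells make little immunoglobulin and little new membrane, and both programmes grow when they are activated.

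The cells were B cells by their defining markers. A UMI, which stands for 1 captured RNA molecule, of at least 1 of 9 B cell markers, among them Ms4a1, Cd79a, Cd79b and Pax5, was found in 420 of 420 cells in 5XFAD and 420 of 420 in WT. The 9 markers summed to 5799 CPM (UMIs of a gene scaled to a total of 1e+06 UMIs) in 5XFAD and 5879 CPM in WT. The 7 T cell markers summed to 20.05 CPM in 5XFAD cells and 27.2 CPM in WT cells, against 25.5 and 25.7 CPM in the other B cell clusters (0, 1, 3, 4 and 5). Cd3e, Cd4 and Cd8a were at 0 in 5XFAD and Cd8a at 0 in WT. The 7 myeloid markers summed to 6.205 CPM in 5XFAD cells and 10.4 CPM in WT cells (9.43 and 13.2 CPM in the other B cell clusters), with S100a8 at 0 in both libraries. The 6 innate lymphoid and NK markers summed to 4.30 and 3.96 CPM (6.12 and 6.10 CPM in the others), with Ncr1 at 0 in both. The 5 epithelial markers summed to 13.4 and 7.91 CPM (13.9 and 9.95 CPM in the others), with Krt20 and Cdh1 at 0. Plasma cell markers were low, at 18.6 CPM in 5XFAD cells and 35.6 CPM in WT cells (19.2 and 32.3 CPM in the others), and Tnfrsf17 was at 0. The share of cluster 2 was 12.2% of each library (11.1 to 13.3), which is 17.8% (16.2 to 19.4) of clusters 0 to 5 in 5XFAD and 16.5% (15.1 to 18.1) in WT.

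Depth was alike in both libraries. Cluster 2 cells had a median of 4959 UMIs and 1693 genes in 5XFAD and 4726 UMIs and 1705.5 genes in WT, with 2095238 and 2021829 UMIs in all. The other B cell clusters had medians of 5129.5 UMIs in 5XFAD and 4792.5 UMIs in WT. The median share of mitochondrial UMIs was 5.44% in 5XFAD and 5.59% in WT, against 4.92% and 4.97% in the other B cell clusters. In both libraries cluster 2 had the highest median of the B cell clusters. No cluster 2 cell of 5XFAD and 8 of WT had 2500 genes or more. This held across the libraries. No 5XFAD cell of any cluster had that many, with at most 2498 genes, and 106 WT cells did, with at most 2697. The libraries shared 3 cell barcodes, and 1 cluster 2 cell carried one of them.

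The sequences just before the start of Abca1 and Eif2ak3 are shown because these are the marker genes of cholesterol export and of the unfolded protein response. They come from RefSeq promoters of build GRCm38.p6 and end at the base before the gene's start. Abca1 (GENCODE gene on chromosome 4, 53030787 to 53159895, minus strand) has its 250 bases at chr4:53159896-53160145 on the minus strand, with the CACGTG E-box in capitals. Eif2ak3 (chromosome 6, 70844515 to 70905245, plus strand) has its 250 bases at chr6:70844265-70844514 on the plus strand, with CCAAT boxes of either strand in capitals.
Abca1: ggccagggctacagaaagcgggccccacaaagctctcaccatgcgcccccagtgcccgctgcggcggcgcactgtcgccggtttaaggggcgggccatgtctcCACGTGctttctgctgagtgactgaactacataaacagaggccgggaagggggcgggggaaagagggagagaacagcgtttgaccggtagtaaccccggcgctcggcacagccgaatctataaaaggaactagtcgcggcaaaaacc
Eif2ak3: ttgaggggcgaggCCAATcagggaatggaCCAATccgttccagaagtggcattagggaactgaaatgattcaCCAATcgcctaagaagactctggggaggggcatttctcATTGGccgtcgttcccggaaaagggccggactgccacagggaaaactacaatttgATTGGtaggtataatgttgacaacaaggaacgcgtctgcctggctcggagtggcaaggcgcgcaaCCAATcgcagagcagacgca
The letters CACGTG, read on both strands, are in 6.02% of all promoters of that table and in a promoter of 6.86% of its genes. CCAAT or its reverse, ATTGG, is in 33.8% of promoters and in a promoter of 37.5% of genes. Of the 19 marker and leading genes of cluster 2, 15 have a promoter in the table. 3 of the 15 hold CACGTG (B3gnt7, Abca1 and Trim25) and 6 hold CCAAT (Eif2ak3, Dennd4a, Kcnq1ot1, Tasor2, Epb41 and Hsp90b1). A match describes the letters and not a binding site.

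The 5 marker genes were at their highest of the 6 B cell clusters in cluster 2 in both libraries. These genes helped to form the clusters, so their levels describe cluster 2 and are no test of it. Scd1 (chromosome 19, 44394455 to 44407879, minus strand) was at 811 CPM (773 to 851) in 5XFAD cluster 2 and 864 CPM (824 to 906) in WT cluster 2. The other B cell clusters together were at 548 CPM in 5XFAD cells and 597 CPM in WT cells, which gives a log2 ratio of cluster 2 over the others of 0.57 (0.49 to 0.65) and 0.53 (0.46 to 0.61). The next cluster was cluster 3 in 5XFAD (612 CPM, 575 to 650) and cluster 1 in WT (729 CPM, 696 to 764). The intervals of cluster 2 and of the next cluster do not overlap for Scd1 in either library.

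Abca1 was at 147 CPM (131 to 164) in 5XFAD cluster 2 and 110.3 CPM (96.3 to 126) in WT cluster 2, against 90.2 and 78.5 CPM in the other B cell clusters. Its log2 ratio of cluster 2 over the others was 0.70 (0.51 to 0.89) in 5XFAD and 0.49 (0.27 to 0.71) in WT. Cluster 0 came next in 5XFAD with 102 CPM (90.5 to 114), and cluster 1 in WT with 88.9 CPM (77.5 to 102). The intervals are apart in 5XFAD and overlap in WT.

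B3gnt7 (chromosome 1, 86302832 to 86307305, plus strand) was at 132 CPM (117 to 148) in 5XFAD cluster 2 and 133 CPM (117 to 149) in WT cluster 2. The other B cell clusters were at 88.3 CPM in 5XFAD cells and 63.6 CPM in WT cells, and the log2 ratio was 0.58 (0.38 to 0.77) in 5XFAD and 1.06 (0.85 to 1.27) in WT. Cluster 1 came next in both libraries, with 110.4 CPM (99.6 to 122) in 5XFAD and 112 CPM (99.0 to 126) in WT, so cluster 2 and cluster 1 are not told apart for B3gnt7. B3gnt5 (chromosome 16, 19760208 to 19772753, plus strand) was at 292 CPM (269 to 316) in 5XFAD cluster 2 and 355 CPM (329 to 382) in WT cluster 2, against 207 and 233 CPM in the others. Its log2 ratio was 0.49 (0.36 to 0.62) in 5XFAD and 0.61 (0.48 to 0.73) in WT. Cluster 1 was next for B3gnt5 too, at 249.8 CPM (233 to 267) in 5XFAD and 288 CPM (267 to 310) in WT, and these intervals do not reach those of cluster 2. Cluster 5 of 5XFAD, with fewer cells, was at 246 CPM (207 to 289), which overlaps cluster 2.

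Eif2ak3 was at 246 CPM (225 to 268) in 5XFAD cluster 2 and 334 CPM (310 to 361) in WT cluster 2, against 208 and 201 CPM in the other B cell clusters. Its log2 ratio of cluster 2 over the others was 0.24 (0.10 to 0.38) in 5XFAD and 0.74 (0.61 to 0.86) in WT. In 5XFAD its level in cluster 0 was 235 CPM (217 to 253), within the interval of cluster 2. With a total that leaves out immunoglobulin, ribosomal protein and mitochondrial genes, Eif2ak3 of 5XFAD was the third of 6 clusters and its ratio was 0.10 (-0.04 to 0.24), while Scd1, Abca1, B3gnt7 and B3gnt5 stayed first in both libraries. The plot of the marker genes by cluster shows these levels.

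**Figure D1:**
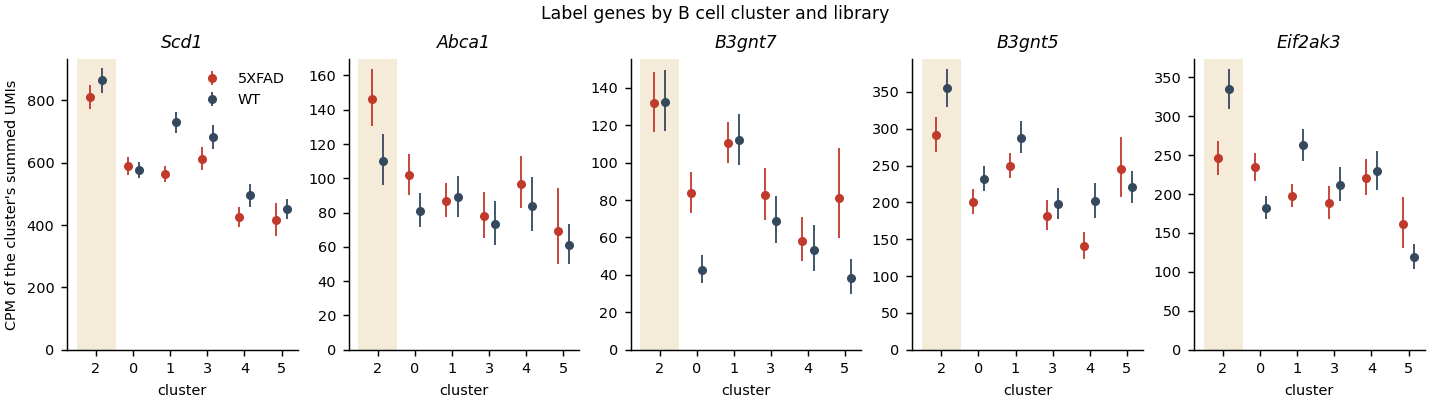
Level of 5 genes as CPM of the summed UMIs of each B cell cluster (points), in 5XFAD and WT, with 95% Poisson intervals of counting error (bars); cluster 2 is shaded. In cluster 2 Scd1 is at 811 CPM in 5XFAD cells and 864 CPM in WT cells, above each of the other 5 clusters.

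Between cells, the share with a UMI of each gene was compared after thinning every cell to 3000 UMIs, which left out 18 cluster 2 cells of 5XFAD and 16 of WT. Scd1 was found in 84.8% (80.9 to 88.2) of cluster 2 cells of 5XFAD and 88.4% (84.8 to 91.3) of WT, against 75.2% and 75.1% of the other B cells. Clusters 8 to 13, taken as cells outside the B cell clusters, whose cells had a median of 5438.5 UMIs in 5XFAD and 5661.5 in WT, showed it in 1.84% and 5.37%. Abca1 was found in 30.8% (26.4 to 35.6) of cluster 2 cells in 5XFAD and 25.2% (21.1 to 29.8) in WT, against 22.1% and 18.5% of the other B cells and 0.460% and 1.73% of clusters 8 to 13. B3gnt7 was found in 28.1% (23.8 to 32.8) and 30.7% (26.2 to 35.4) of cells, against 20.6% and 14.98% of the other B cells and 0.460% and 0.960% of clusters 8 to 13. B3gnt5 was found in 52.7% (47.7 to 57.7) and 61.1% (56.2 to 65.9), against 42.0% and 44.2% of the other B cells and 2.30% and 3.26% of clusters 8 to 13. Eif2ak3 was found in 47.5% (42.5 to 52.5) and 56.2% (51.2 to 61.1), against 43.2% and 38.7%, and its share in clusters 8 to 13 was 5.52% in 5XFAD and 8.06% in WT. Without thinning the shares of cluster 2 ran for Scd1 to 93.6% in both libraries, and for B3gnt7 to 40.2% in 5XFAD and 38.3% in WT. Eif2ak3 of 5XFAD was then in 61.7% of cluster 2 cells, 63.3% of cluster 0 cells and 66.0% of cluster 4 cells. Thinned to 2000 UMIs, these shares were 36.9% (32.3 to 41.7), 36.2% and 34.7%. Scd1 was thus found in most cells of every B cell cluster, and cluster 2 differed from the others in degree.

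A cluster 2 cell held 2.44 of the 5 marker genes on average in 5XFAD and 2.62 in WT at that depth, against 2.03 and 1.92 in the other B cells. 4 or 5 of them were found in 15.9% of cluster 2 cells of 5XFAD and 18.6% of WT, against 8.26% and 5.71% of the other B cells. Within cluster 2 the pairs of marker genes went either way. Among the 10 pairs, the share of cells with 1 gene was higher among cells with the other in 7 pairs in 5XFAD and 4 in WT, with differences between -7.76 and 9.95 percentage points in 5XFAD and between -15.9 and 13.8 in WT.

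The share of UMIs from ribosomal protein genes was lower in cluster 2 than in each of the other B cell clusters in both libraries. It was 29.0% of UMIs in 5XFAD and 25.7% in WT, against 35.6% and 30.9% in the other B cell clusters together. The median cell had 29.1% in 5XFAD and 25.8% in WT. The other clusters' medians ran between 33.4% in cluster 5 and 39.9% in cluster 4 of 5XFAD, and between 29.0% in cluster 0 and 34.8% in cluster 4 of WT. Of the cluster 2 cells 97.1% in 5XFAD and 95% in WT were below the median of the other B cells. Of 80 ribosomal protein genes measured, 79 were below no change in both libraries, where 18% of all 9679 genes were, and the exception was Rps27l, a ribosomal protein gene copy, at 0.02 in 5XFAD and 0.30 in WT. The ratios ran between -0.39 and 0.02 in 5XFAD and between -0.42 and 0.30 in WT. Rplp0, a protein of the ribosomal stalk, was at 2423 CPM in 5XFAD cells and 2146 CPM in WT cells, against 3183 and 2873 CPM in the other B cell clusters.

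CPM values are shares of a total, so a smaller ribosomal share goes with higher CPM of other genes. The median gene had a log2 ratio of cluster 2 over the others of 0.15 in 5XFAD and 0.10 in WT, so a list median is to be read against these values. At 3000 UMIs a cluster 2 cell had a median of 1209 genes in 5XFAD and 1255 genes in WT, against 1120 and 1180 genes in the other B cells, which is the most of the 6 clusters. Longer transcripts were also higher in cluster 2. Across the 9598 genes with a length, Spearman's rho of the longest transcript and the log2 ratio was 0.31 in 5XFAD and 0.21 in WT, as a description of genes that share the same 4 sums of UMIs. The 15 leading genes have a median longest transcript of 6128 bases (14 with a length), the 10 lower genes of 1186 bases, and all tested genes of 3343 bases. The part of transcript length in the results was not tested.

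**Figure D2:**
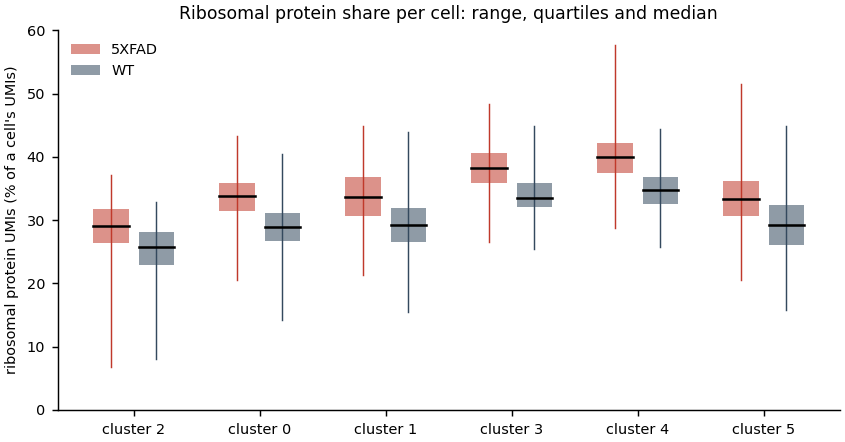
Ribosomal protein UMIs as a percent of each cell's UMIs in 6 B cell clusters and both libraries, with the range of cells (line), the middle 50% (box) and the median (black bar). Cluster 2 has medians of 29.1% in 5XFAD and 25.8% in WT, below the medians of the other 5 clusters.

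Of 9679 genes with at least 50 UMIs, 167 (1.73%) were at least 1.5-fold higher in cluster 2 than in the other B cell clusters in both libraries and 144 (1.49%) at least 1.5-fold lower. The split turned with the scaling, to 71 higher and 228 lower with median-of-ratios size factors and to 77 higher and 210 lower with a total that leaves out immunoglobulin, ribosomal protein and mitochondrial genes. Among 2544 genes that reached 50 CPM on their higher side in both libraries, 13 (0.511%) were higher and 5 (0.197%) lower. None of the 5 marker genes was at least 1.5-fold higher in both libraries, as each fell short in at least 1. The 15 leading genes, of which Scd1 is one, rank highest by the bound of the log2 interval nearest 0 in the library where it is nearer. All 15 were first of 6 clusters in 5XFAD, and 13 were in WT, where cluster 1 was above cluster 2 for Il21r and Hsp90b1. With the total that leaves out immunoglobulin, ribosomal protein and mitochondrial genes, Il21r was second to cluster 1 in 5XFAD as well. The scatter plot of both libraries shows where they lie.

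**Figure D3:**
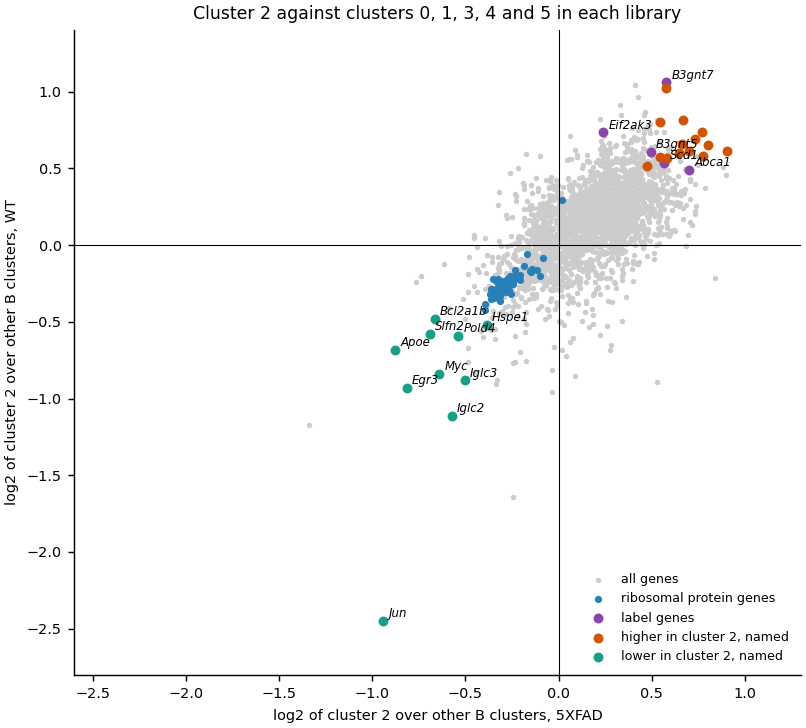
Log2 ratio of the CPM of cluster 2 over clusters 0, 1, 3, 4 and 5 in 5XFAD (horizontal) and in WT (vertical), a point for each gene with at least 50 CPM. Ribosomal protein genes lie below 0 in both libraries but for 1, and Jun lies lowest in WT at -2.45.

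Of the genes for receptors, P2ry10, a receptor for the signal lipid lysophosphatidylserine, was at 684 CPM in 5XFAD cells and 703 CPM in WT cells, against 430.4 and 400.1 CPM in the other B cell clusters. Its log2 ratio was 0.67 (0.58 to 0.76) in 5XFAD and 0.81 (0.73 to 0.90) in WT. Il21r, the receptor of a cytokine by which T cells help B cells, was at 439 CPM in 5XFAD cells and 349 CPM in WT cells, against 301 and 234 CPM. Its ratio was 0.54 (0.44 to 0.65) in 5XFAD and 0.57 (0.45 to 0.69) in WT. Cluster 1 had more Il21r than cluster 2 in WT, at 389 CPM.

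Of the genes for the secretory path, Golgb1, a long tether of Golgi membranes called giantin, was at 106 CPM in 5XFAD cells and 115 CPM in WT cells, against 56.8 and 75.02 CPM, with ratios of 0.91 (0.68 to 1.13) and 0.61 (0.40 to 0.83). Trip11, a Golgi tether called GMAP-210, was at 116 CPM in 5XFAD cells and 162 CPM in WT cells, against 71.6 and 106 CPM. Hsp90b1, the endoplasmic reticulum chaperone Grp94, was at 876 CPM in 5XFAD cells and 701 CPM in WT cells, against 630.4 and 491 CPM. The golgins and Golgi tethers, a list added after the values were seen, had a median of 0.37 in 5XFAD and 0.32 in WT over 20 measured genes, or 0.21 and 0.22 above the median gene. Of them Golgb1 and Trip11 passed 1.5-fold higher in both libraries, where 1.73% of all genes did, and neither did with median-of-ratios scaling, at 0.51 each in WT. Of the list, 13 of 20 were above no change in both libraries, where 47% of all genes were.

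Of the genes for signalling, Pde3b, which degrades cyclic AMP, was at 224 CPM in 5XFAD cells and 249 CPM in WT cells, against 150.4 and 123 CPM. Its ratio was 0.58 (0.43 to 0.73) in 5XFAD and 1.02 (0.87 to 1.17) in WT, and cluster 5 held the least, with 76.2 CPM in 5XFAD cells and 39.0 CPM in WT cells. Sik1, a kinase induced by cyclic AMP, was at 292 CPM in 5XFAD cells and 216 CPM in WT cells, against 170.4 and 144 CPM. Dennd4a, an activator of Rab GTPases, was at 814 CPM in 5XFAD cells and 1147 CPM in WT cells, against 515 and 726 CPM. Arap2, which switches off Arf GTPases, was at 413 and 358 CPM, against 276 and 241 CPM. Trim25, a ubiquitin ligase of antiviral sensing, was at 248 and 278 CPM, against 170.2 and 159.6 CPM, and Epb41, a linker of membrane and cytoskeleton, at 129.8 and 149.9 CPM, against 83.0 and 99.1 CPM.

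The other leading genes act in the nucleus. Kcnq1ot1, a long noncoding RNA, was at 283 CPM in 5XFAD cells and 304 CPM in WT cells, against 162 and 193 CPM, with ratios of 0.80 (0.66 to 0.94) and 0.65 (0.52 to 0.78). On the total without immunoglobulin, ribosomal protein and mitochondrial genes, WT clusters 2 and 1 were level for Kcnq1ot1, at 447.6 and 447.2 CPM. It lies in the gene Kcnq1 on the other strand, and how the authors' counting used strand is not given in the sources used here, so its value is uncertain. Smc5, of a complex for chromosome maintenance and repair, was at 101 and 118 CPM, against 59.4 and 71.1 CPM. Tasor2, a gene for a relative of a silencing protein, was at 114 CPM in 5XFAD cells and 143 CPM in WT cells, against 68.4 and 88.6 CPM.

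The 10 genes that lead on the lower side were often high in a single other cluster. Apoe, a lipid carrier, was at 457 CPM in 5XFAD cells and 279 CPM in WT cells, against 839.5 and 447 CPM in the other B cell clusters, where cluster 4 held 2001 and 1316 CPM and cluster 1 held 311 and 202 CPM. Its ratio was -0.88 (-0.97 to -0.78) in 5XFAD and -0.68 (-0.81 to -0.56) in WT. Cluster 2 was the lowest of 6 clusters for Pold4, Hspe1 and Bcl2a1b in 5XFAD and for Jun, Iglc2, Hspe1 and Bcl2a1b in WT. Bcl2a1b, which protects from cell death, was at 99.8 CPM in 5XFAD cells and 84.6 CPM in WT cells, against 158 and 118 CPM, but it has near-identical copies whose reads the counting could split. Myc, a growth regulator, was at 66.3 and 53.4 CPM, against 103.5 and 95.7 CPM, with 213 CPM in cluster 1 of 5XFAD and 172 CPM in cluster 5 of WT.

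Jun, a subunit of the AP-1 factor, was at 39.6 CPM in 5XFAD cluster 2 and 85.6 CPM in WT cluster 2, against 76.1 and 467 CPM in the other B cell clusters. Its ratio was -0.94 (-1.29 to -0.61) in 5XFAD and -2.45 (-2.68 to -2.23) in WT. Cluster 5 held 672 CPM of it in 5XFAD and 1730 CPM in WT. Without cluster 5 the ratio was -0.01 (-0.37 to 0.34) in 5XFAD and -1.27 (-1.51 to -1.05) in WT. Egr3 was at 31.0 and 77.2 CPM, against 54.6 and 147 CPM, and without cluster 5 its ratios were -0.67 in 5XFAD and -0.73 in WT.

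Lambda light chain genes were lower in cluster 2. Iglc2, a lambda light chain constant gene, was at 239 CPM in 5XFAD cells and 233 CPM in WT cells, against 356 and 506 CPM in the other B cell clusters, and Iglc3 at 129.8 and 145.9 CPM, against 184 and 269 CPM. Iglc1, Iglc2 and Iglc3 are near-identical, and reads may be split wrongly among them. Cells with more lambda than kappa UMIs were 15 of 420 in 5XFAD, or 3.57% (2.01 to 5.82), and 8 of 420 in WT, or 1.90% (0.83 to 3.72). In the other B cell clusters the share was 5.50% (4.53 to 6.61) in 5XFAD and 6.47% (5.46 to 7.60) in WT, with 2.61% and 1.68% in cluster 3. The kappa constant gene Igkc was at 4242 CPM in 5XFAD cells and 3722 CPM in WT cells, against 3967 and 3760 CPM. The heavy chain gene Ighm was at 953 and 1337 CPM, against 961 and 1541 CPM.

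Most measured genes of fatty acid synthesis were higher in cluster 2, none past 1.5-fold in both libraries. Fatty acid synthesis and desaturation had a median of 0.37 in 5XFAD and 0.41 in WT over 18 measured genes, or 0.22 and 0.31 above the median gene. Of these genes 13 of 18 were above no change in both libraries, where 47% of all genes were. Marker genes count in the lists of their own pathways, as Scd1 does here and B3gnt7, B3gnt5 and Eif2ak3 do below. Such list values describe the cluster and are no test of it. Fasn, the fatty acid synthase, was at 31.0 CPM in 5XFAD cells and 32.6 CPM in WT cells, against 20.1 and 24.2 CPM. Acaca, which makes its building block, was at 18.6 and 24.2 CPM, against 13.02 and 16.8 CPM, and Elovl5, an elongase, at 38.7 and 43.0 CPM, against 26.8 and 30.7 CPM. Cholesterol synthesis and uptake had a median of 0.31 in 5XFAD and 0.12 in WT over 26 genes, or 0.15 and 0.02 above the median gene, with 18 of 26 above in both, beside 47% of all genes. Sqle, which makes squalene epoxide, was at 31.0 and 44.5 CPM, against 20.7 and 26.5 CPM, and Insig1, the brake of sterol sensing, at 104 and 134 CPM, against 81.5 and 91.6 CPM.

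The LXR target list did not follow Abca1. Its 16 measured genes had a median of 0.02 in 5XFAD and 0.06 in WT, which is -0.14 and -0.05 against the median gene, with 7 of 16 above in both libraries and 5 below in both, beside 47% and 18% of all genes. The list member Apoe was past 1.5-fold lower in both libraries, with the values above. Abca7, a relative of Abca1, was at 18.1 CPM in 5XFAD cells and 19.3 CPM in WT cells, against 8.75 and 16.1 CPM, and Srebf1, the regulator of fatty acid genes, at 16.7 and 17.8 CPM, against 12.7 and 13.6 CPM. Fatty acid oxidation and PPAR target genes had medians of 0.10 in 5XFAD and -0.10 in WT over 15 genes.

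The 22 measured genes of glycan chain extension and capping had medians of 0.20 in 5XFAD and 0.28 in WT, or 0.04 and 0.18 above the median gene, and 14 of 22 were above in both libraries, beside 47% of all genes. Beside B3gnt7 and B3gnt5, B4galt5, which adds galactose to glycolipids, was at 73.5 CPM in 5XFAD cells and 65.8 CPM in WT cells, against 54.6 and 46.2 CPM. Ugcg, the first enzyme of glycolipid synthesis, was at 119 and 138 CPM, against 98.0 and 88.9 CPM. The 30 genes of the unfolded protein and integrated stress response had medians of 0.23 in 5XFAD and 0.28 in WT, or 0.08 and 0.17 above the median gene, with 18 of 30 above in both, near the 47% of all genes. Atf3, a stress-induced transcription factor, was past 1.5-fold lower, where 1.49% of all genes were, at 13.4 and 9.40 CPM, against 25.1 and 26.9 CPM. Without cluster 5 the ratios of Atf3 were -0.56 in 5XFAD and -0.67 in WT, and it no longer passed 1.5-fold in both. Creld2, induced in that response, was at 34.4 and 33.1 CPM, against 24.98 and 18.2 CPM, and Ppp1r15b, a subunit of the phosphatase that restores translation, at 72.1 and 89.5 CPM, against 53.6 and 55.4 CPM.

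The other lists lie on both sides of the median gene, and their values rest on the other B cell clusters, of which cluster 5 differs most between the libraries, with 119 cells in 5XFAD and 396 in WT. Immediate early genes had medians of 0.08 in 5XFAD and -0.50 in WT over 25 genes, with 5 past 1.5-fold lower and 0 higher, where 1.49% and 1.73% of all genes were. Without cluster 5 these were 0.18 in 5XFAD and -0.06 in WT, with 2 lower. Heat shock chaperones had medians of 0.02 in 5XFAD and -0.36 in WT over 22 genes, and 0.11 and -0.05 without cluster 5. The heat shock genes Hspa1a and Hspa1b, near-identical copies whose split of reads is uncertain, were at 3.82 and 6.205 CPM in 5XFAD and 12.4 and 16.8 CPM in WT, against 19.3 and 24.5 CPM and 126 and 143 CPM in the others. Without cluster 5, the ratio of Hspa1a was 1.51 (0.03 to 2.89) in 5XFAD and -1.46 (-2.11 to -0.87) in WT. The 5XFAD ratio rests on few UMIs, with 1.34 CPM in the others. B cell activation genes had medians of -0.04 in 5XFAD and -0.39 in WT over 19 genes, with Egr1 at 26.3 and 23.2 CPM, against 46.5 and 91.6 CPM. Interferon response genes had medians of -0.09 and -0.25 over 30 genes, with 14 below no change in both libraries, beside 18% of all genes. Nuclear oxidative phosphorylation genes had medians of -0.08 and -0.07 over 59 genes, with 36 below in both. The mitochondrially encoded genes were above no change in both libraries in 13 of 13 cases, beside 47% of all genes, at medians of 0.15 and 0.22, which is -0.01 and 0.12 against the median gene.

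**Figure D4:**
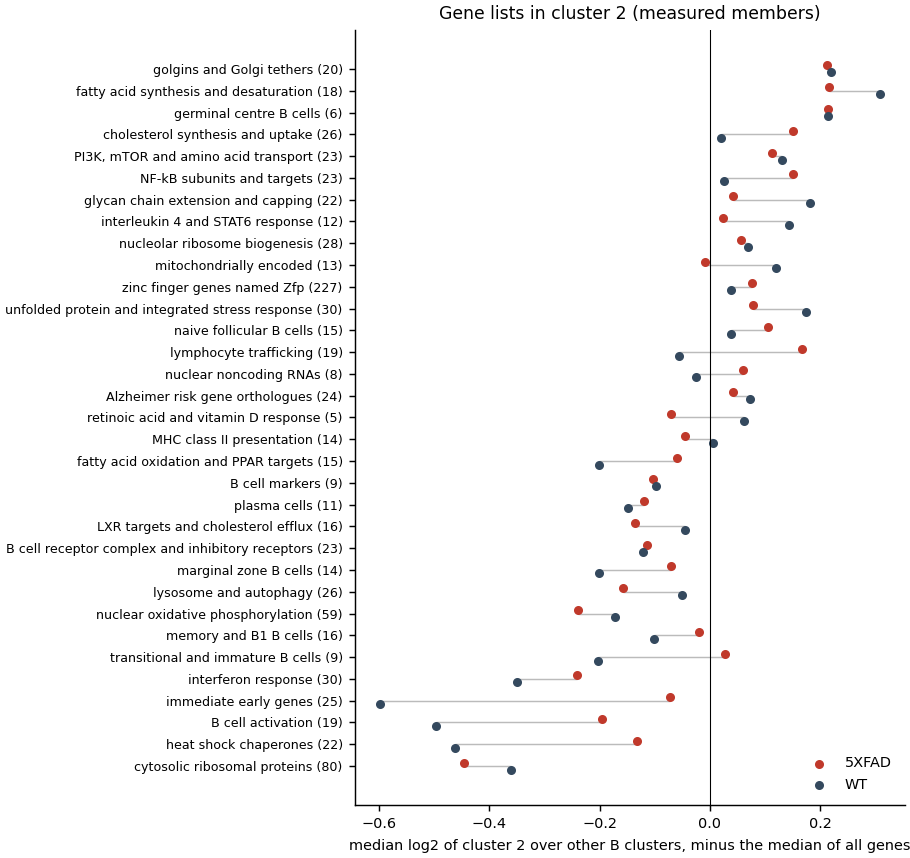
Median log2 ratio of cluster 2 over the other B cell clusters for each gene list (measured members in brackets) in 5XFAD and WT, minus the median of all genes in that library. Fatty acid synthesis lies at 0.22 in 5XFAD and 0.31 in WT, and ribosomal protein genes lie at -0.45 and -0.36.

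Set against each other B cell cluster on its own with at least 50 CPM, cluster 2 was nearest to clusters 0 and 1 on the CPM scale. Past 1.5-fold in the same direction in both libraries were 3.58% of 2601 genes against cluster 0 (71 higher and 22 lower) and 3.94% of 2614 against cluster 1 (72 higher and 31 lower). Against cluster 3 they were 4.57% of 2538 (114 higher and 2 lower), against cluster 4 10.9% of 2542 (261 higher and 16 lower) and against cluster 5 10.7% of 2650 (166 higher and 117 lower). Clusters 3 and 4 had the largest ribosomal protein shares, 38.5% and 40.1% of UMIs in 5XFAD, against 29.0% in cluster 2. In WT these were 34.1% and 35.2%, against 25.7%. A smaller share goes with higher CPM of other genes, and these counts were not repeated with another scaling. Among the leading higher genes were Mpp7 against cluster 0, Ssh2 and Sla against cluster 1, and Kcnq1ot1 and Dennd4a against cluster 3.

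Between the libraries, cluster 2 cells of 5XFAD and WT differed at 1.5-fold in 377 of 6425 genes higher in 5XFAD (5.87%) and 653 lower (10.2%). The split was 478 to 510 with median-of-ratios size factors, 511 to 483 with the total without immunoglobulin, ribosomal protein and mitochondrial genes, and 324 to 750 with a total without Gm42418, AY036118 and Lars2. Each value compares 1 library of 3 pooled mice with another, and animal, genotype and preparation cannot be told apart. The median gene was at -0.05. Short transcripts were higher in 5XFAD, with medians of 0.18 for the shortest 25% of genes and -0.28 for the longest 25%, and Spearman's rho was -0.43 over 6393 genes that share the same 2 libraries. Gm42418, a gene model that overlaps ribosomal RNA, was at 19723 CPM in 5XFAD cells and 43163 CPM in WT cells.

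Rnaset2a, a lysosomal ribonuclease with a near-identical copy, was at 226 CPM in 5XFAD cells and 77.2 CPM in WT cells, a log2 ratio of 1.55 (1.29 to 1.82), and the other B cell clusters were at 1.37 (1.26 to 1.49). Atp5md, which is part of the ATP synthase of mitochondria, was at 561 CPM in 5XFAD cells and 242 CPM in WT cells (1.21, 1.06 to 1.37), with 1.41 in the others. Ost4, a subunit of the enzyme that puts sugars on new proteins, was at 209.5 CPM in 5XFAD cells and 86.1 CPM in WT cells (1.28, 1.03 to 1.55), with 1.36 in the others. Samsn1, a brake of B cell receptor signalling, was at 267 CPM in 5XFAD cells and 115 CPM in WT cells, and Gpr65, an acid-sensing receptor, at 53.5 and 21.8 CPM. Nmt1, Sap18, Snrpf, Ndufb1-ps and Pet100 complete the higher genes, with ratios between 0.99 and 1.34. The other B cell clusters were on the same side for all 10. Of 2979 genes at 50 CPM or more, 141 (4.73%) were higher in 5XFAD and 244 (8.19%) lower.

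Of the lower genes, Fosb, a partner of Jun, was at 61.6 CPM in 5XFAD cells and 198 CPM in WT cells, a log2 ratio of -1.68 (-1.98 to -1.39), with -2.17 in the other B cell clusters. Ciita, the regulator that turns on MHC class II genes, was at 40.1 CPM in 5XFAD cells and 122 CPM in WT cells (-1.61, -1.98 to -1.24), with -1.79 in the others. Of 14 MHC class II presentation genes, 7 were above 0, near the 44.2% of all genes, and 7 below, with Ciita itself past 1.5-fold lower. H2-Ab1 was at 5868 CPM in 5XFAD cells and 4347 CPM in WT cells, a ratio of 0.43 (0.39 to 0.47), and Ifi30, a reductase of antigen processing, at 128 and 160 CPM (-0.32, -0.56 to -0.08). Hsph1, a heat shock chaperone, was at 15.3 and 54.9 CPM (-1.85, -2.46 to -1.27), and Kmt2a, a histone methyltransferase, at 97.4 and 196 CPM (-1.01, -1.26 to -0.76). Lars2, the mitochondrial leucyl tRNA synthetase, was at 1011 and 1924 CPM (-0.93, -1.01 to -0.85), with -1.21 in the others. Like Gm42418, Lars2 holds ribosomal RNA sequence in this build, so its UMIs may not all come from its mRNA, which was not tested. Egr3, March1, Nin, Lpp and Ccdc88c lie between -1.41 and -1.14.

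Of the marker genes of cluster 2, Abca1 was higher in 5XFAD, with a log2 ratio of 0.41 (0.16 to 0.67), and B3gnt5 and Eif2ak3 lower, at -0.28 (-0.44 to -0.12) and -0.44 (-0.61 to -0.28). Scd1 was at -0.09 (-0.19 to 0.01) and B3gnt7 at -0.01 (-0.26 to 0.24). For Eif2ak3 the other B cell clusters were at 0.05, a difference of -0.50 (-0.68 to -0.31), and for B3gnt7 at 0.47, a difference of -0.48 (-0.76 to -0.20). For Scd1 the difference was 0.03 (-0.08 to 0.14). For Abca1 it was 0.21 and for B3gnt5 -0.11, both smaller than the ratio in cluster 2 itself. The other B cell clusters thus lay on the same side of no change for Abca1 and B3gnt5.

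The list medians of the library ratio in cluster 2 mostly followed those of the other B cell clusters. Nuclear oxidative phosphorylation genes had a median of 0.40 over 59 genes, with 55 above 0, where 44.2% of all genes were, and 12 past 1.5-fold higher, where 5.87% were, against 0.41 in the others. Nucleolar ribosome biogenesis genes had a median of 0.34 over 27 genes, against 0.26. Interferon response genes had a median of -0.37 over 18 genes, with 16 below 0, where 55.8% of all genes were, against -0.64, and orthologues of Alzheimer risk genes had -0.30 over 24 genes, with 19 below 0, against -0.39. Fatty acid synthesis genes had -0.09 over 15 genes and cholesterol synthesis genes -0.25 over 16 genes. Hmgcs1, an early enzyme of cholesterol synthesis, was at 62.0 CPM in 5XFAD cells and 108 CPM in WT cells, a ratio of -0.80 (-1.13 to -0.48), with -0.54 in the others. Immediate early genes were nearer no change in cluster 2, at -0.14 over 23 genes, against -0.56 in the others. B cell activation genes were at 0.05 over 14 genes, against -0.24. The others include cluster 5, with 119 cells in 5XFAD and 396 in WT. List medians of their library ratio without cluster 5 were not computed, so its part in these 2 contrasts was not tested.

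For single genes, the library ratio of cluster 2 lay above that of the other B cell clusters by its interval in 541 of 6425 genes (8.42%) and below in 354 (5.51%). Jun had a ratio of -1.11 (-1.51 to -0.73) in cluster 2 and -2.62 (-2.73 to -2.51) in the others, a difference of 1.51 (1.11 to 1.90). Klf6, a stress-induced transcription factor, was at 200.5 CPM in 5XFAD cluster 2 and 233 CPM in WT cluster 2, a ratio of -0.22, against -1.15 in the others. Cd69, an early activation marker that holds cells in tissue, was at 158 and 216 CPM, a ratio of -0.45, against -1.40 in the others. Jun, Klf6 and Cd69 were highest in cluster 5 in both libraries, and that cluster had 119 cells in 5XFAD and 396 in WT. Without cluster 5 the differences were smaller, at 1.27 for Jun, 0.59 for Klf6 and 0.78 for Cd69. With it they were 1.51, 0.93 and 0.94. Of the genes on the other side, Cystm1 had a difference of -0.72 (-1.05 to -0.39), Rnf125, a ubiquitin ligase, -0.81 (-1.25 to -0.37) and Plek, a target of protein kinase C, -0.47 (-0.62 to -0.33). The plot of library ratios shows cluster 2 beside the other B cell clusters.

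**Figure D5:**
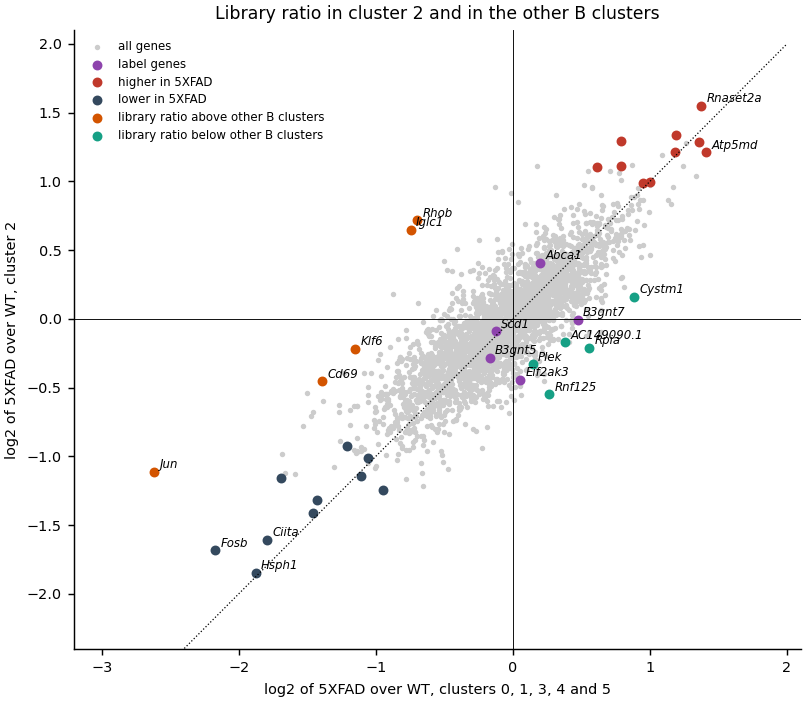
Log2 ratio of 5XFAD over WT in cluster 2 (vertical) and in clusters 0, 1, 3, 4 and 5 (horizontal), a point for each gene with at least 50 CPM; the dotted line marks equal ratios. Jun, at -1.11 in cluster 2 and -2.62 in the others, lies farthest above the line of the named genes.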

How the data were processed

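RNA of sorted live CD45+ colon cells was counted in 1 pooled library for 5XFAD and 1 for WT. Reads were processed with Cell Ranger 6.0.1 and genome mm10, per the submitters' processing notes, and for cell filters and doublet removal the sources used here give no method. The authors deposited the natural log of 1 plus counts per 10000 UMIs, an SCT table of natural log values, and metadata with UMI and gene counts, the percent of mitochondrial UMIs and the cluster number of each cell. The log values were inverted with the deposited UMI count per cell, and 11758401 of 11758401 values gave whole numbers within 1e-06. UMIs were summed per cluster and library and scaled to CPM. The deposited library name AD was read as 5XFAD. Ratios have exact conditional binomial intervals, shares Clopper-Pearson intervals and levels exact Poisson intervals, all of 95% and for counting error only. Differences of ratios have normal intervals. Genes needed 50 UMIs, and 1.5-fold was the size counted. A count of 0 was replaced by 3 in a ratio. Named genes are the 5 marker genes, the 15 higher and 10 lower genes of cluster 2, the 10 higher and 10 lower in 5XFAD and the 5 on each side by difference of library ratio. They were ranked by the interval bound nearest 0 at 50 CPM or more, with up to 4 genes from each list. Other genes printed, such as Iglc1, Hspa1a and those of single clusters, were chosen after their values were seen. Members and lists were chosen with earlier results of these data known. Python 3.11.15, numpy 2.4.6, scipy 1.17.1 and pandas 2.3.3 were used, and the ratio code was tested on simulated data. Alternatives were other scalings, filters, fold sizes, the SCT table, cells left out and cluster 5 left out. Values of some single genes are not reported here.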

Additional observations from a re-analysis of the deposited data

Results flagged for a closer look

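With 1 library per genotype these differences between libraries or clusters were not tested. Rhob, a small GTPase, had a log2 ratio of cluster 2 over the other B cell clusters of 0.53 in 5XFAD and -0.89 in WT, and a ratio of 5XFAD over WT of 0.72 in cluster 2 and -0.70 in the others. Its level in cluster 2 was 71.6 CPM in 5XFAD and 43.5 CPM in WT. Without cluster 5 its ratios of cluster 2 over the others were 0.72 in 5XFAD and -0.30 (-0.65 to 0.03) in WT. Klf6 had 0.28 in 5XFAD and -0.65 in WT, and without cluster 5 0.53 and -0.06 (-0.20 to 0.09). AC149090.1, a gene model without a given function, had -0.19 in 5XFAD and 0.37 in WT.

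Iglc1 had a ratio of 5XFAD over WT of 0.65 in cluster 2 and -0.75 in the other B cell clusters, with 63.5 CPM in 5XFAD cluster 2 and 40.6 CPM in WT cluster 2. Plek had -0.33 in cluster 2 and 0.14 in the others. Rnf125 had -0.55 in cluster 2 and 0.26 in the others. All of them were marked because their intervals lie on opposite sides of no change.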

How the results depend on the processing

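Against 167 genes higher and 144 lower in cluster 2, there were 71 and 228 with median-of-ratios scaling, 303 and 223 at 20 UMIs or more, 2626 and 227 with no filter, 12 and 32 at 2-fold, and 13 and 5 at 50 CPM or more, a limit added after seeing the data. With the total that leaves out immunoglobulin, ribosomal protein and mitochondrial genes, 77 were higher. Against 377 genes higher and 653 lower in 5XFAD cluster 2, there were 655 and 1108 at 20 UMIs, 2176 and 2998 with no filter, 67 and 107 at 2-fold, and 141 and 244 at 50 CPM. In every ratio a count of 0 was replaced by 3. With no filter, a gene without a UMI in cluster 2 and with few in the others can thus count as higher. The counts with no filter are therefore not counts of genes that differ. The share of cluster 2 was 17.8% in 5XFAD and 16.5% in WT when taken of clusters 0 to 5. A change of sign was marked only for list medians of at least 0.10 in size. With median-of-ratios scaling these were retinoic acid response (-0.00133) and MHC class II presentation (-0.00574). Without cluster 5 they were immediate early genes (0.10) and heat shock chaperones (0.057). Smaller medians, such as that of the LXR targets, were not marked when they changed sign. The median library ratio of transitional B cells was -0.0701 with no filter. The cause was not tested. Of 840 values of named genes under an alternative, 791 moved by less than their counting interval, 49 moved by more and 0 of the called ones reversed. B3gnt7 between libraries was 0.04 with median-of-ratios scaling. No paired analysis was possible because each genotype has 1 library, and for the same reason no library could be left out.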

Other observations

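Of 15 genes of naive follicular B cells, 10 were above no change in both libraries in cluster 2 over the other B cell clusters, beside 47% of all genes. The list median was 0.11 in 5XFAD and 0.04 in WT above the median gene, so the list lay near all genes. Of its members 1 of 15 was below no change in both libraries, beside 18% of all genes. Satb1, a chromatin organiser, was at 1284 CPM in 5XFAD cells and 1652 CPM in WT cells, against 975.2 and 1090 CPM in the others. Il4ra, the receptor of interleukin 4, was at 144 CPM in 5XFAD cells and 180.0 CPM in WT cells, against 97.2 and 128 CPM. Cxcr5, the receptor that guides B cells to follicles, was at 156 CPM in 5XFAD cells and 183 CPM in WT cells, against 105 and 151 CPM. Foxo1, a regulator of homing genes, was at 190.4 CPM in 5XFAD cells and 234 CPM in WT cells, against 139 and 199 CPM. Klf2, a regulator of lymphocyte homing, was at 701 CPM in 5XFAD cells and 551 CPM in WT cells, against 585 and 795 CPM, and Btg1, an inhibitor of cell growth, at 1932 and 1724 CPM, against 2053 and 1860 CPM.

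Genes of PI3K, mTOR and amino acid transport had medians of 0.27 in 5XFAD and 0.23 in WT over 23 genes, or 0.11 and 0.13 above the median gene, with 15 above no change in both, beside 47% of all genes. Zinc finger genes named Zfp, a list added after the values were seen, had medians of 0.23 in 5XFAD and 0.14 in WT over 227 genes, or 0.08 and 0.04 above the median gene, with 12 past 1.5-fold higher and 2 lower, beside 1.73% and 1.49% of all genes.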
